A study of Mus musculus with 6 samples.

Results

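The genes described here encode the core of the NF-κB pathway: the subunits Rela, Relb, Nfkb1 and Nfkb2, the inhibitor Nfkbia, the IκB kinase components Chuk, Ikbkb and Ikbkg, the adaptor Traf2 and the feedback regulator Tnfaip3. They were chosen by name, and all 10 were found among the 770 gene probes of the panel. The samples were melanomas of genetically engineered mice that carry an activated Braf allele. Tumours were started by painting 4-hydroxy-tamoxifen, the ligand of tamoxifen-dependent Cre, on the back at 10 weeks of age, and this holds for both groups. The 3 treated samples came from mice injected intraperitoneally with 30 mg/kg of the resveratrol analogue 4′-bromo-resveratrol (4′-BR) on 3 days a week for 5 weeks, and the 3 control samples carry no further label. Neither the treatment of the control mice nor the promoter that drives Cre is stated in the labels. RNA molecules were counted with barcoded probe pairs on the nCounter platform.

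In resting cells NF-κB dimers are held in the cytoplasm by inhibitors such as IκBα, the product of Nfkbia. In the canonical route receptors of tumour necrosis factor, interleukin-1 and microbial products act through adaptors such as TRAF2 on a kinase complex of IKKα (Chuk), IKKβ (Ikbkb) and the scaffold NEMO (Ikbkg), which marks IκBα for destruction and frees RelA-p50 dimers. In the non-canonical route IKKα drives processing of the Nfkb2 product into p52, the partner of RelB. NF-κB switches on its own brakes, IκBα and the ubiquitin-editing protein A20 (Tnfaip3). 4′-BR has been described as inhibiting SIRT1 and SIRT3, which are protein deacetylases, and RelA is a known substrate of SIRT1. Deacetylation of RelA is a change to the protein, and the counts here are of transcripts.

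Promoter windows of Nfkbia, Tnfaip3 and Nfkb2 held matches to the κB consensus, which are shown here. Transcripts of these 3 members are known to follow NF-κB activity, and they need not be the only such members. The sequences are from RefSeq (GRCm38.p6), on the strand of the gene, with each match to the κB consensus of 10 bases in capitals. The consensus was searched on both strands, overlapping matches included. A further Nfkb2 match, at chr19:46305447-46305480, is not printed.
Nfkbia, chr12:55492655-55492688, minus strand: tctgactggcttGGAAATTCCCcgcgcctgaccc
Tnfaip3, chr10:19015401-19015434, minus strand: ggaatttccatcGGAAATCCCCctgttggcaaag
Tnfaip3, chr10:19015514-19015547, minus strand: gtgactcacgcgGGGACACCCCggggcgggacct
Nfkb2, chr19:46304686-46304747, plus strand: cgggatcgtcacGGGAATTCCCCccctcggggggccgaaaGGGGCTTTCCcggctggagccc
Nfkb2, chr19:46305693-46305726, plus strand: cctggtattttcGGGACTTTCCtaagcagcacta
Counted from the start site, the matches of Tnfaip3 begin at −12 and −125 and that of Nfkbia at −29. The first Nfkb2 stretch holds 3 matches, of which the pair nearest its left end overlap. Of the 7 members with a promoter window of 250 bases before to 50 after a start site, these 3 held a match in at least one window, and Rela, Chuk, Ikbkg and Traf2 held none. Among all 27025 genes with a window, 5.136% held a match. Nfkb1, Relb and Ikbkb had no window and were not searched. A match is a run of letters and does not show that the factor binds there.

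Depth differed between the groups. Total counts ran from 322485 to 472402 in control and from 118221 to 254862 in treated samples, so depth and treatment cannot be told apart. Counts were scaled to the geometric mean of the 20 housekeeping probes, which was 590 ± 99.2 in control and 308 ± 112 in treated samples (SD, n = 3 each). The negative control probes stood at 4.63 ± 0.45 and 5.60 ± 2.03 after this scaling, and the lowest raw count of any member in any sample was 47. In these bulk samples fewer cells of a type and less RNA per cell cannot be told apart. Of 11 listed melanocyte and melanoma markers 4 were measured (Mcam, Kit, Cspg4 and S100b), with a summed level of 3415 to 3753 in control and 2277 to 3742 in treated samples. The pigment genes that define melanocytes were not analysed here. Marker levels of other cells differed between the groups. The summed level of 11 macrophage and monocyte markers was 9176 to 11064 in control and 4348 to 6356 in treated samples, and 5 of the 11 fell. For 6 fibroblast markers it was 23234 to 31934 and 10332 to 15346, and 4 of them fell. For 6 keratinocyte and epithelial markers it was 4229 to 4960 and 5898 to 6689, and 2 rose. Fell and rose mean called at an edgeR adjusted p under 0.05. Of the 548 tested genes 5.66% were called lower and 1.28% higher. Lyz2 makes up most of the macrophage and monocyte sum, and Col1a1 and Col3a1 most of the fibroblast sum. The part of these marker differences in the NF-κB values was not tested.

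None of the 10 members passed the test between treated and control tumours in either direction (edgeR quasi-likelihood test, adjusted p under 0.05 over all genes tested), where 6.93% of the 548 tested genes passed. DESeq2 and limma also called 0, and 1 member, Ikbkb, had an unadjusted p under 0.05 in edgeR. The fold changes were small. On the log2 scale they ran from −0.25 for Rela to 0.41 for Ikbkb, with a median of 0.09 beside −0.04 for all tested genes, and 7 of the 10 were positive where 47.3% of tested genes were, though all 10 were negative with positive control scaling. The 95% intervals of all 10 lay between −0.72 and 0.76, that is, no further than 1.64-fold lower or 1.70-fold higher. An interval wholly within a log2 fold change of 1 was found for 10 of 10 members and for 61.9% of tested genes. These bounds hold for housekeeping scaling: with positive control scaling 3 of the 10 intervals lay within a log2 fold change of 1, and that of Rela ran from −1.46 to −0.33.

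**Figure D1:**
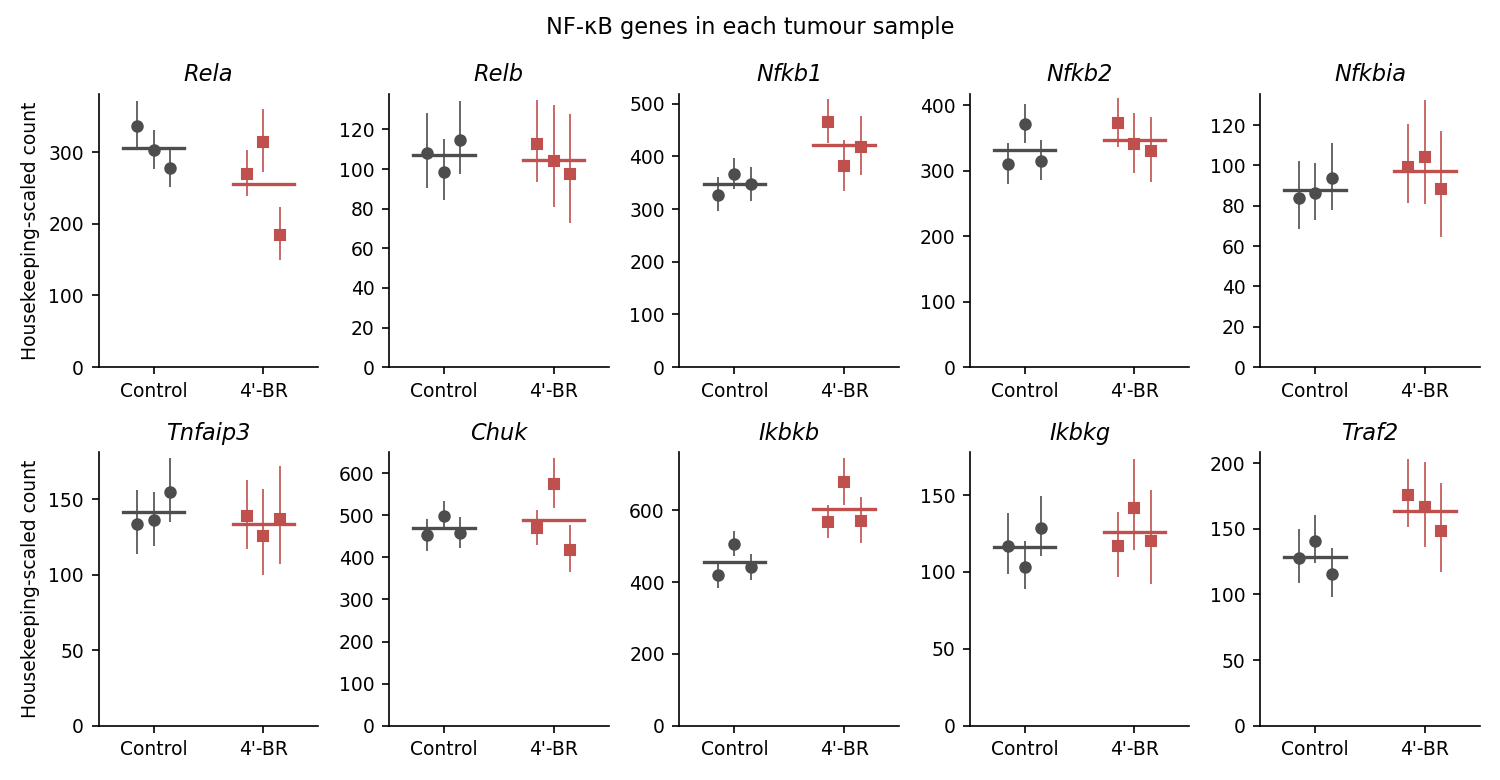
Housekeeping-scaled count (vertical axis, from 0) of each NF-κB gene in 3 control samples (grey circles) and 3 samples treated with 4′-BR (red squares); thin bars are 95% Poisson intervals of the count, which cover counting error only, and horizontal lines are group means. The groups separate for Nfkb1, Ikbkb and Traf2, whose fold changes turn negative with positive control scaling, and Rela is lowest in 4′-BR 3.

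With housekeeping scaling no Rel-family subunit passed. Rela, which encodes the transactivating subunit p65, stood at scaled counts of 336, 303 and 278 in control 1 to 3 and 269, 314 and 184 in treated 1 to 3. The groups overlap, with 2 treated samples among or next to the controls and the last one alone at the bottom. Its mean was 306 ± 29.3 in control and 256 ± 66.2 in treated samples (SD, n = 3 each), a log2 fold change of −0.25 (SE 0.21, edgeR adjusted p = 0.477). The low sample, 4′-BR 3, had 98 raw counts of Rela, with a 95% Poisson interval of 149 to 224 on the scaled level, below the interval of each other sample. It is also the sample of lowest depth, and without it the log2 fold change of Rela was −0.07. With positive control scaling Rela was at −0.90 and was called lower (adjusted p = 0.0112). That scaling moved most genes down: 44.3% of the 548 were called lower, and the middle gene stood at −0.67. Relb, the partner of p52 in the non-canonical route, stood at 108, 98.7 and 115 in control and 113, 104 and 97.5 in treated samples. These levels are interleaved, and the log2 fold change was −0.03 (SE 0.18, adjusted p = 0.934).

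Nfkb1, which encodes p105 and its product p50, stood at 327, 366 and 347 in control and 465, 381 and 418 in treated samples. Every treated value lay above every control value, with 4′-BR 2 closest to the controls. The log2 fold change was 0.28 (SE 0.15, edgeR adjusted p = 0.305), with a 95% interval of −0.06 to 0.63, so Nfkb1 did not pass. Nfkb2, which encodes p100 and p52, stood at 310, 372 and 315 in control and 373, 341 and 330 in treated samples. Here the highest control sample reached the level of the highest treated one, and the log2 fold change was 0.07 (SE 0.16, adjusted p = 0.798).

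Neither brake of the pathway passed with housekeeping scaling. Nfkbia stood at 84.1, 86.2 and 93.6 in control and 99.4, 104 and 88.2 in treated samples. Of the treated values 2 lie above all controls and 1 lies among them, with a log2 fold change of 0.15 (SE 0.19, edgeR adjusted p = 0.642). Tnfaip3 stood at 134, 136 and 155 in control and 139, 126 and 137 in treated samples, and the groups overlap. Its log2 fold change was −0.08 (SE 0.17, adjusted p = 0.773). For the 3 members with κB matches printed above, Nfkbia, Tnfaip3 and Nfkb2, the 95% intervals with housekeeping scaling together covered −0.46 to 0.57. With positive control scaling Nfkbia was at −0.49 and Tnfaip3 at −0.70, where the median of all tested genes was −0.67, and neither passed.

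The kinase complex showed the member that came nearest to the threshold. Ikbkb, the catalytic subunit IKKβ of the canonical route, stood at 419, 507 and 441 in control and 568, 678 and 570 in treated samples. All treated values lay above all control values, and 4′-BR 2 was the highest. The mean was 456 ± 46.0 in control and 605 ± 63.0 in treated samples (scaled counts, SD, n = 3 each), a 1.33-fold difference that did not pass. Its log2 fold change was 0.41 (SE 0.16, edgeR adjusted p = 0.156), with a 95% interval of 0.05 to 0.76 that is not corrected for the number of genes. Chuk, the other catalytic subunit, stood at 453, 498 and 458 in control and 470, 575 and 418 in treated samples. The treated values span the controls on both sides, and the log2 fold change was 0.06 (SE 0.17, adjusted p = 0.843). Ikbkg, the scaffold, stood at 117, 104 and 129 in control and 117, 142 and 120 in treated samples, with overlapping groups and a log2 fold change of 0.11 (SE 0.19, adjusted p = 0.714).

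Traf2, the adaptor that links receptors of the tumour necrosis factor family to the kinase complex, stood at 128, 141 and 116 in control and 176, 166 and 148 in treated samples. The groups do not overlap, and the log2 fold change was 0.35 (SE 0.17, edgeR adjusted p = 0.256). Nfkb1, Ikbkb and Traf2 were thus the 3 of 10 members whose groups were separate, all with the treated samples higher, and all 3 had negative fold changes with positive control scaling. Of all tested genes 30.5% had separate groups, 12.6% with the treated samples higher and 17.9% with them lower. The share among the members is near that of all genes. The housekeeping genes can be set beside the members, but they set the scale, so their values centre near 0 by construction. They are not an independent comparison. Of the 20, 4 had separate groups and none passed. Their log2 fold changes ran from −0.38 to 0.37, and Ikbkb was the member outside this range.

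**Figure D2:**
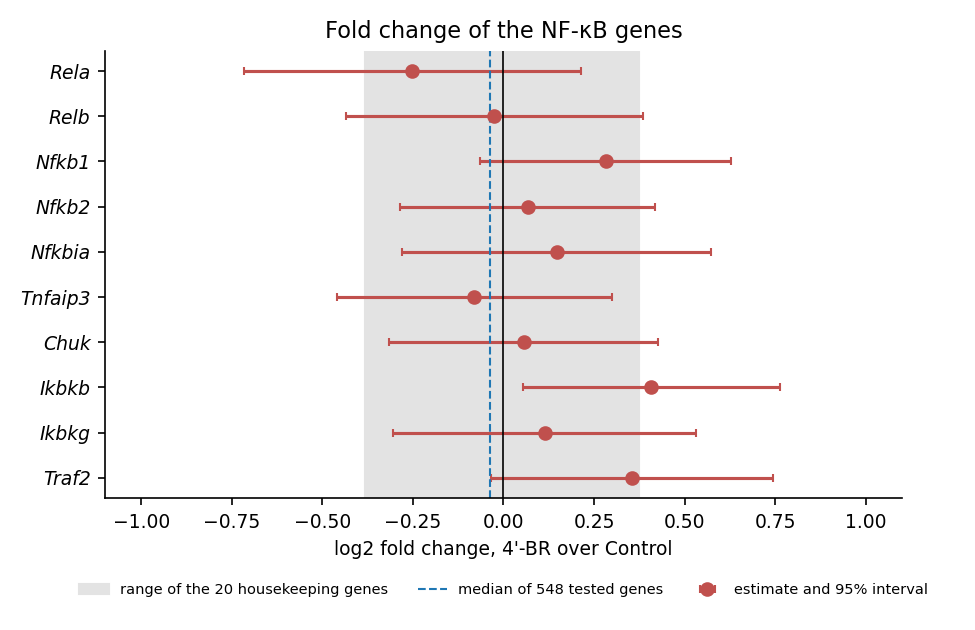
Log2 fold change of each NF-κB gene, 4′-BR over control (points), with its 95% interval (bars) from edgeR. The grey band is the range of the 20 housekeeping genes, which themselves set the scale. The dashed line is the median of the 548 tested genes. Ikbkb, at 0.41, is the 1 interval that does not reach 0, and it did not pass after adjustment.

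The members varied little between samples of one group. The standard deviation within groups had a median of 0.13 on the log2 scale over the members and of 0.28 over all tested genes. These are not compared at like counts. Tested genes reach down to a mean raw count of 20, where counting error is larger, and the lowest member mean was 98.8. For 8 members, between 5.29% and 14.2% of tested genes had a smaller spread. Chuk (19.9%) and Rela (54.7%) varied more. The mean centred log2 level of the members lay at −0.08, −0.02 and −0.05 in control 1 to 3 and at 0.09, 0.13 and −0.07 in treated 1 to 3. The first and second treated samples lay above all controls, and 4′-BR 3 lay among them. Tested genes other than the members and the housekeeping probes were ranked by root mean square distance from this mean profile over the 6 samples. The nearest were Il13ra1 (0.056), Prkcd (0.061), Ewsr1 (0.064), Tab1 (0.075) and Atf2 (0.079), where the median distance of the 518 genes ranked was 0.31. Il13ra1 encodes a receptor chain for interleukin-13, Prkcd a protein kinase C, Ewsr1 an RNA-binding protein, Tab1 an activator of the kinase TAK1 and Atf2 a transcription factor. Their own log2 fold changes lay between 0.10 and 0.20, and none passed. Such small values follow from choosing genes near a profile that is itself nearly flat.

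A ratio of 2 members inside a sample does not depend on how samples are scaled, so 5 ratios between functional partners were compared. With 3 samples against 3 the exact permutation test cannot give a p below 0.1. Ikbkb over Chuk, the balance of the catalytic kinase subunits, had log2 ratios of −0.11, 0.03 and −0.05 in control and 0.27, 0.24 and 0.45 in treated samples. The groups do not overlap, and the ratio was 1.29-fold higher in treated samples, a log2 difference of 0.37 (means −0.05 ± 0.07 and 0.32 ± 0.11, SD, n = 3 each, two-sided exact permutation p = 0.1, adjusted 0.167). These are ratios of probe counts, so their absolute size carries the efficiency of each probe and only the difference between groups can be read.

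Nfkb2 over Nfkb1 was lower in every treated sample, with log2 ratios of −0.08, 0.02 and −0.14 in control and −0.32, −0.16 and −0.34 in treated samples. The difference was −0.21 (two-sided exact permutation p = 0.1, adjusted 0.167), and control 3 and 4′-BR 2 nearly touch. Tnfaip3 over Traf2, the feedback regulator against the adaptor, stood at 0.06, −0.05 and 0.42 in control and −0.34, −0.40 and −0.11 in treated samples. The groups are separate, with a difference of −0.43 (exact permutation p = 0.1, adjusted 0.167). The ratios to Rela overlapped between groups. Nfkbia over Rela differed by 0.43 and Relb over Rela by 0.26 (exact permutation p = 0.2 for each, adjusted 0.2), and in both 4′-BR 3 had the highest ratio. Over all 45 pairs of members, 14 (31.1%) had ratios that were separate between the groups, beside 32.9% of the 149878 pairs of tested genes.

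**Figure D3:**
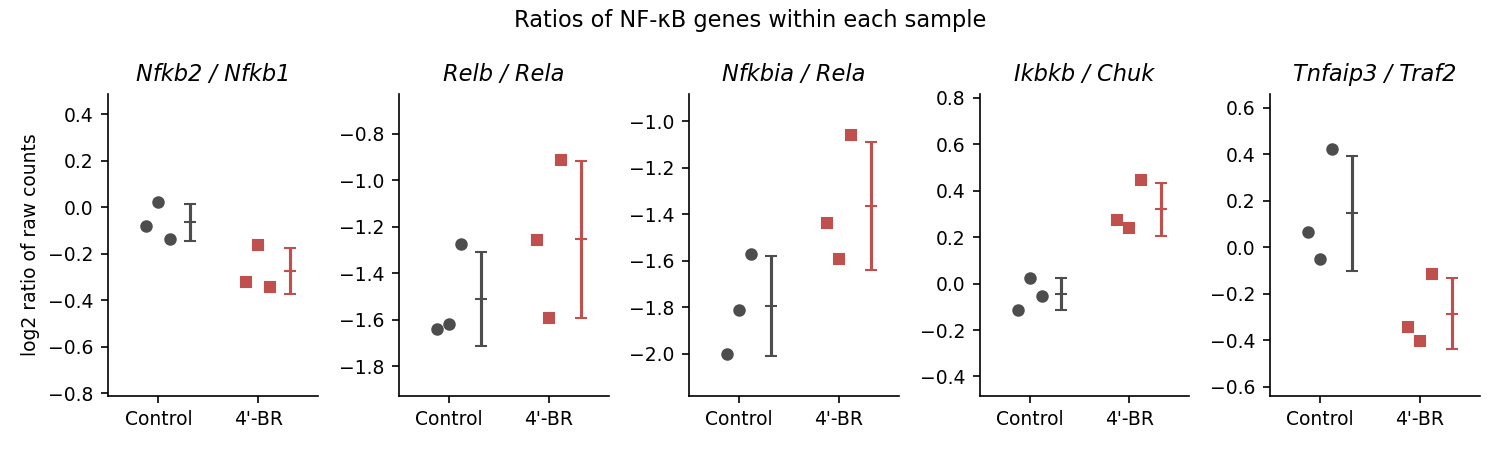
Log2 ratio of raw counts of 2 NF-κB genes within each sample (points, 3 control samples in grey and 3 treated with 4′-BR in red), with the group mean and SD beside them; each panel spans the same range of log2 units. Ikbkb over Chuk is higher and Nfkb2 over Nfkb1 and Tnfaip3 over Traf2 are lower in all treated samples.

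The fold changes depended on the scaling of samples, which moves all genes of a sample together. Ikbkb stood at 0.45 with TMM or median-of-ratios scaling (edgeR adjusted p = 0.0656 and 0.0684). With total count scaling it was at 0.56 and passed upward (adjusted p = 0.0374), as did 5.47% of tested genes, and the median of all genes moved to 0.12. Positive control probes count synthetic RNA added at a set amount, and scaling by them moved the median of all genes to −0.67. In that fit all 10 members were negative, from −0.90 to −0.24, and Rela passed downward (adjusted p = 0.0112), as did 44.3% of tested genes.

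**Figure D4:**
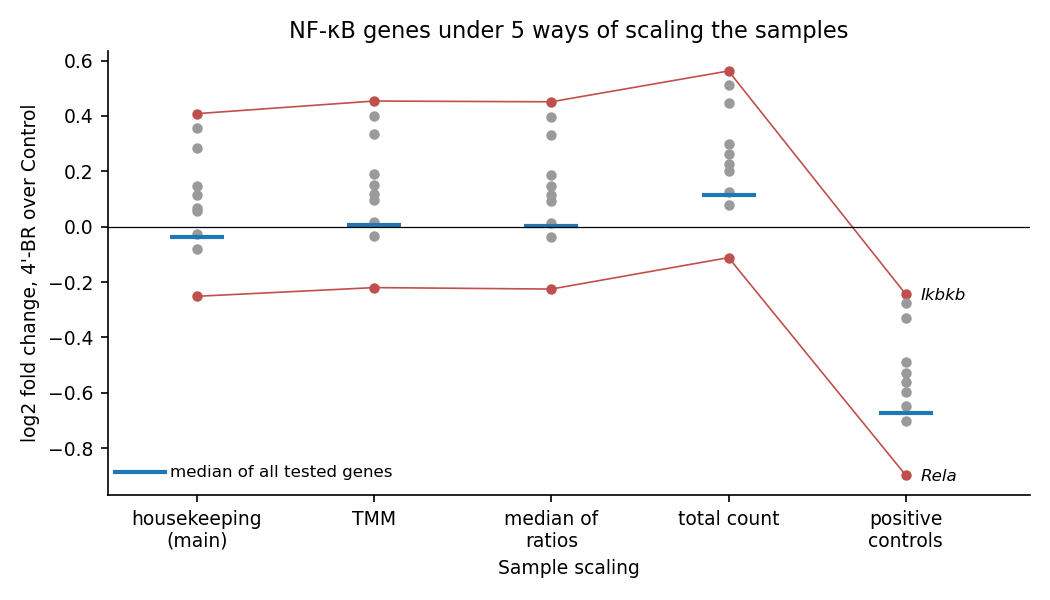
Log2 fold change, 4′-BR over control, of the 10 NF-κB genes (points) under 5 ways of scaling the samples (horizontal axis), with the median of all tested genes as a blue bar; Ikbkb and Rela, the highest and the lowest member, are joined by red lines. The members move with the median of all genes, down to −0.67 with positive control scaling.

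Around the members, 148 further genes of the pathway were listed, of which 114 were measured and 89 tested. These lists were chosen with earlier results of these data known. Of the 89, 1 was called higher and 6 lower, where 1.28% of all tested genes were called higher and 5.66% lower, and their median log2 fold change was −0.01. Among 24 tested receptors and ligands upstream of NF-κB, 1 fell and none rose (median −0.18). It was Il1b, the gene of interleukin-1β, at 111, 172 and 54.1 scaled counts in control and 21, 24.9 and 11.3 in treated samples (log2 fold change −2.53, SE 0.46, edgeR adjusted p = 0.0356). The groups do not overlap, and control 2 is the highest. In 4′-BR 3 the level of Il1b lies below that of the highest negative probe of that sample, so the size of its fall is loosely set. The raw counts of Il1b in treated samples average below the count minimum of 20, so it was tested only through its control samples. Among 23 tested adaptors and kinases upstream of the kinase complex none passed (median 0.09). Those of lowest p were Irak3, an inhibitor of receptor signalling mainly in myeloid cells, at −0.47 (adjusted p = 0.195), and Myd88, the adaptor of Toll-like and interleukin-1 receptors, at 0.40 (adjusted p = 0.303).

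Among the other subunits, inhibitors and coregulators 6 were tested and none passed (median 0.07). The remaining Rel-family gene, Rel, stood at 119, 127 and 154 scaled counts in control and 182, 168 and 143 in treated samples, with overlapping groups and a log2 fold change of 0.30 (SE 0.19, edgeR adjusted p = 0.361). Bcl6, a repressor that binds many NF-κB targets in lymphocytes, was at 0.43 (adjusted p = 0.258). Enzymes known to add or remove acetyl groups on RelA were looked up for their role after their values were seen. The acetyltransferase genes Ep300 and Crebbp were at −0.04 and −0.15 and the deacetylase gene Hdac3 at 0.10 (adjusted p = 0.884, 0.557 and 0.695). Hdac3 is 1 of the 20 housekeeping probes that set the scale, so its value is partly measured against itself. The genes of SIRT1 and SIRT3 were not analysed here.

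Among 32 tested genes listed as targets of NF-κB, 5 were called lower and 1 higher, with a median of −0.27 on the log2 scale, and 19 had negative values. Il1b was listed with the receptors and ligands only and is not counted here, whether or not it is a target. Over all tested genes 5.66% were called lower and 1.28% higher. The list was chosen with earlier results of these data known, so the comparison with all genes is not an independent one. It also leaves out the members, none of which passed. Myeloid markers were lower in the same samples: 11 of 11 tested macrophage and monocyte markers and 3 of 3 tested neutrophil markers had negative fold changes. Over all tested genes 47.3% had positive ones. The summed level of the 6 measured neutrophil markers was 2882 to 4669 in control and 1180 to 1904 in treated samples. Nearly all of this sum is S100a8, at 4619, 2764 and 4254 in control and 1847, 1135 and 1649 in treated samples. Mpo, Elane and Camp were below the count minimum and were not tested. The part of myeloid cells in the target genes was not tested. The matrix gene Fn1 fell from 2484, 2110 and 1584 scaled counts in control to 642, 639 and 702 in treated samples (log2 fold change −1.64, edgeR adjusted p = 0.00422). Nlrp3, which senses danger signals within the inflammasome, fell from 75.9, 137 and 70.2 to 33.4, 23.3 and 24.4 (−1.78, adjusted p = 0.0356). In both genes all treated values lie well below all controls. The urokinase gene Plau was at −0.87 (adjusted p = 0.0387) and Lbp, which hands lipopolysaccharide to CD14, at −0.99 (adjusted p = 0.044). The chemokine gene Cxcl2 was at 28, 58.9 and 8.78 in control and 2.87, 6.22 and 3.75 in treated samples (−2.94, adjusted p = 0.0481), and its treated level is that of the negative probes, so the size is loosely set. Cxcl2, which is 1 of the 5 called lower, reached the count minimum for testing only through its control samples, as did Il1b above. Without control 2 Cxcl2 fell below that minimum and was not tested. Myc, a growth regulator, rose from 363, 420 and 384 to 741, 627 and 653 (0.79, adjusted p = 0.0356), and no pathway gene was called higher with positive control scaling. Fn1 is also on the fibroblast list, whose summed level is given above, and its part was not tested.

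With 5 samples in place of 6 fewer pathway genes passed in most fits. Genes called lower numbered 1 without control 1, 2 without control 2, 7 without control 3, 0 without 4′-BR 1 or 4′-BR 2 and 1 without 4′-BR 3 (edgeR, with 107 to 125 tested genes at an unadjusted p under 0.05), and DESeq2 was not run on these subsets. Those called higher numbered 2 without control 3 and 0 without any other single sample. Over these fits the log2 fold change of Il1b ran from −2.86 to −2.08, that of Fn1 from −1.80 to −1.48, that of Nlrp3 from −1.99 to −1.40 and that of Myc from 0.72 to 0.85. Targets known for the non-canonical route numbered 4 among the tested genes, and none passed. Ccl19, a chemokine of lymphoid tissue with near-identical copies in the mouse genome that its probe may also read, was at 78.3, 180 and 198 in control and 304, 529 and 248 in treated samples (log2 fold change 1.24, edgeR adjusted p = 0.0711). Ccl21a was at 0.40 (adjusted p = 0.383).

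**Figure D5:**
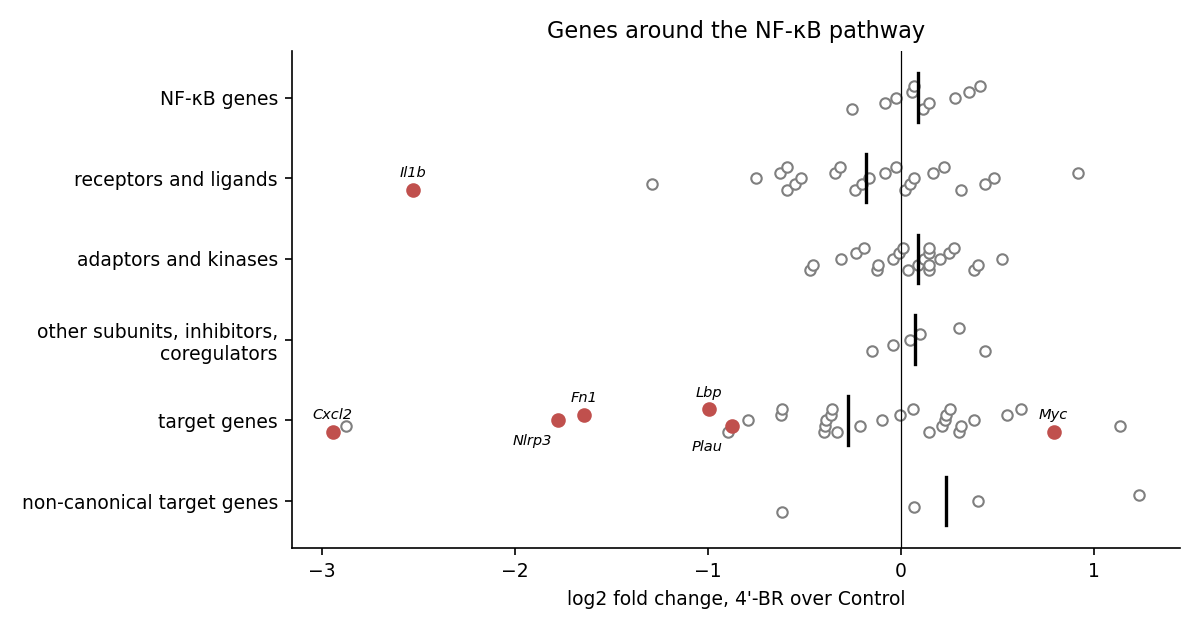
Log2 fold change, 4′-BR over control, of the tested genes in 6 lists around NF-κB (1 point per gene); filled red points passed the test and are named, open points did not, and black bars are list medians. The 10 NF-κB genes lie between −0.25 and 0.41 with none filled. On the left, 5 genes of the target list and Il1b, listed only with the receptors and ligands, are filled.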

How the data were processed

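Raw counts of barcodes per probe were deposited with no scaling, per the file headers, for 750 endogenous, 20 housekeeping, 6 positive and 8 negative control probes. By contrast, 730 immune and 40 housekeeping genes are named in the labels' protocols. The authors' deposited normalized score per gene lay within 1 of the raw count times a housekeeping factor in each sample, for all 770 genes. No label or header names the software behind either table.

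The quasi-likelihood test of edgeR 4.0.16 (R 4.3.3) was run on raw counts with housekeeping scaling, for the 548 genes whose raw count averaged 20 or more; all 10 members passed this minimum. P-values, all two-sided, were adjusted by Benjamini and Hochberg's method across the 548 genes and called under 0.05. Fold changes are 4′-BR over control, and levels are housekeeping-scaled counts. Alternatives used DESeq2 1.42.0, limma 3.58.1 on log2(deposited score + 1), other scalings, filters and blocks, and each sample left out. Promoters came from RefSeq.

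Groups and replicate numbers come from sample titles. The labels give 6 mice without tying each sample to one, and the spread behind each p-value is that between samples, which may be technical. Same-numbered samples deviated together with correlations of −0.07, 0.07 and 0.22, so the numbers were not taken as pairs. Chi-square per degree of freedom between replicates was 5.53 to 19.0, and none was treated as a duplicate. Intervals of counts cover counting error only. The members, the lists and the rule for named genes were chosen with earlier results of these data known. That rule took all members, the genes of each list past the threshold or else the 2 of lowest p, and the 5 genes nearest to the members' mean profile. Other marker lists gave no further call than 1 of 3 tested neutrophil genes (lower), and none of 7 T cell, 1 natural killer cell, 2 dendritic cell and 8 endothelial genes; no B cell gene was tested.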

Additional observations from a re-analysis of the deposited data

How the results depend on the processing

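No member passed in edgeR under TMM or median-of-ratios scaling, no count minimum, a count minimum of 50, subtraction of the negative controls, the replicate block or any left-out sample, or in DESeq2 or limma. The exceptions were total count scaling (1 higher, Ikbkb at 0.56; member median 0.24) and positive control scaling (1 lower, Rela at −0.90; member median −0.54). With positive controls Nfkb1 turned to −0.33, Nfkb2 to −0.56, Nfkbia to −0.49, Ikbkb to −0.24, Ikbkg to −0.53, Chuk to −0.60 and Traf2 to −0.27. Relb turned to 0.017 with TMM, 0.012 with median-of-ratios scaling and 0.13 by total count, and Tnfaip3 to 0.077 with total count. Without single samples Relb ran from −0.086 to 0.026 (positive without control 3 or 4′-BR 3), Chuk from −0.078 (without 4′-BR 2) to 0.15, and the member median ran from 0.05 to 0.15. The causes were not tested.

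All genes called higher, 7 in the main comparison, numbered 19 with TMM, 19 with median-of-ratios scaling, 30 with total count, 1 with positive controls, 4 with background subtracted, 21 with DESeq2, 2 with limma and 3 with the replicate block. Those called lower, 31 in the main comparison, numbered 30 with total count, 243 with positive controls, 48 with DESeq2, 7 with limma and 27 with the replicate block. Pathway genes called higher numbered 4 with DESeq2 and with TMM, median-of-ratios and total count scaling, and 0 with positive controls and limma, and those called lower 34 with positive controls and 3 with limma. Without single samples all genes called higher ran from 0 to 4 and lower from 0 to 32, and pathway genes called higher from 0 to 2 and lower from 0 to 7. The replicate block changed no call of a member. The within-sample ratios kept their direction under every alternative run: Ikbkb over Chuk ran from 0.30 to 0.41 without single samples, Nfkb2 over Nfkb1 from −0.27 to −0.17, Tnfaip3 over Traf2 from −0.53 to −0.29, Nfkbia over Rela from 0.28 to 0.54 and Relb over Rela from 0.09 to 0.42. A separation of 3 against 3 samples fixes its direction when 1 is left out. The replicate block leaves the mean difference of a ratio unchanged. In the deposited scores the factor of a sample cancels from a ratio, apart from rounding. These 2 alternatives therefore could not turn a direction. Lower depth in treated samples widens their counting error.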
